A study of Mus musculus with 16 samples.

Results

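The hippocampus of mice injected with beta-sitosterol was compared with that of mice injected with vehicle, with the tissue taken 6 h after the injection. These are 8 of the 16 RNA-seq libraries of the study, chosen by their sample titles, 4 from vehicle mice (numbered 11, 12, 13 and 14) and 4 from beta-sitosterol mice (numbered 17, 18, 19 and 20). All mice were wild-type C57BL/6, an inbred laboratory strain, and the sterol was given into the abdominal cavity at 100 mg/kg. Age, sex and the composition of the vehicle are not given in the labels. The other 8 libraries, from mice dissected 1 h after the same injections (vehicle mice 2 to 5 and beta-sitosterol mice 6 to 9), entered the fit that estimates the spread between mice and are compared with the 6 h mice at the end. Only RNA of high integrity was sequenced, per the labels. Each title carries its own animal number, so the tests set the difference between groups against the spread between mice.

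Beta-sitosterol is the most common plant sterol and differs from cholesterol by an ethyl group on the side chain. Brain cells make their own cholesterol, which is carried between cells on apolipoprotein E particles loaded by ABC transporters. Sterol levels are watched by 2 kinds of regulator, the liver X receptors, nuclear receptors that bind oxidised sterols and switch on genes of export and of fatty acid synthesis, and the SREBP factors, which leave the endoplasmic reticulum when membranes are low in sterol and switch on genes of synthesis and uptake. Many plant sterols or their derivatives are known to act on these pathways in other tissues.

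The 6 h libraries held 24815581 to 31266644 counted reads, and 17055 genes passed the filter on low counts. Hippocampal markers were present in all 8 libraries: Prox1 of dentate granule cells lay between 125 and 197 CPM, the counts scaled to a common library size, Wfs1 of CA1 pyramidal cells between 125 and 195 CPM, and Grik4 of CA3 between 61.1 and 79.2 CPM. Some libraries stood apart from the rest of their group. Ttr, the transthyretin gene of choroid plexus epithelium, was under 100 CPM in vehicle mouse 14 and in beta-sitosterol mice 17 and 19, and between 686 and 3801 CPM in the other 5. Vehicle mouse 13 alone was high in Cbln3, Pcp2, Cbln1 and Car8, genes known from the cerebellum: Cbln3 measured 18.4 CPM there and at most 0.877 CPM in the other 7. Beta-sitosterol mouse 19 alone was high in Lcn2 (28.4 CPM, against at most 1.94 CPM in the other 7) and in Plin4 (64.8 CPM, against at most 24.8 CPM). These genes were picked because they set a library apart.

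**Figure D1:**
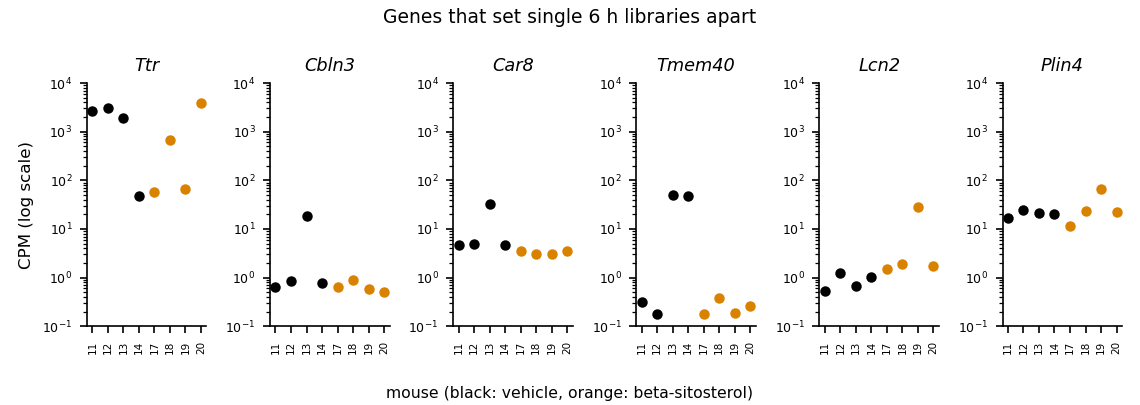
Levels of 6 genes in each 6 h library, in CPM on a log axis, with 1 point per mouse, black for vehicle and orange for beta-sitosterol. Ttr is low in mice 14, 17 and 19, Cbln3 and Car8 are high in mouse 13, Tmem40 is high in mice 13 and 14, and Lcn2 and Plin4 are high in mouse 19.

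The comparison asks which hippocampal transcripts differ 6 h after the sterol. Differences were small and none passed after adjustment by edgeR: its quasi-likelihood test called 0 of the 17055 genes (0%), and the smallest adjusted p was 0.321. DESeq2 on the same counts called 123 genes (0.721%), 102 higher and 21 lower, all of them with an unadjusted edgeR p under 0.05, and limma on the authors' normalized signal called 0. DESeq2 gave no adjusted p to 12895 of the 17055 genes, mainly those of low level set aside by its own filter. Its calls thus come from genes of high level. Abca7, Hrh1 and Igf1 were not called, with unadjusted DESeq2 p of 5.26e-05, 6.46e-05 and 8.9e-05. Srebf1, at a higher level, was called with 9.42e-05. Of genes detailed below, its calls include Ppp1r16a, Plxnb1, Adgrg1, Pitpnm1, Apoe, Srebf1 and Fads2 (lower). They also include Atf2, Fbxo45, Hnrnph2, Ipo7, Kpna1, Kpna4, Serpina3n, Cacna2d1 and Gabra2 (higher). The higher calls had a median GC content of 42.9% and level of 142 CPM, and the lower calls 58.3% and 94.8 CPM. Over all genes these medians were 49.4% and 16.3 CPM, but the filter fixed in advance that the calls would be of high level. By edgeR an unadjusted p under 0.05 was reached by 1086 genes higher with beta-sitosterol (6.37%) and by 984 lower (5.77%), 2070 in all, where 853 would be reached if no gene differed. Among the 2070 the median size of the log2 fold change was 0.19, and 145 differed by at least 1.5-fold. The 4 treated mice lay above all 4 vehicle mice for 938 genes (5.5%) and below all 4 for 591 (3.47%). Below, a gene or group is described by such unadjusted values, none of which passed over all genes by edgeR. The higher count rests much on vehicle mouse 11: without it 532 genes were higher and 709 lower. Without beta-sitosterol mouse 19 the counts were 700 and 669.

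**Figure D2:**
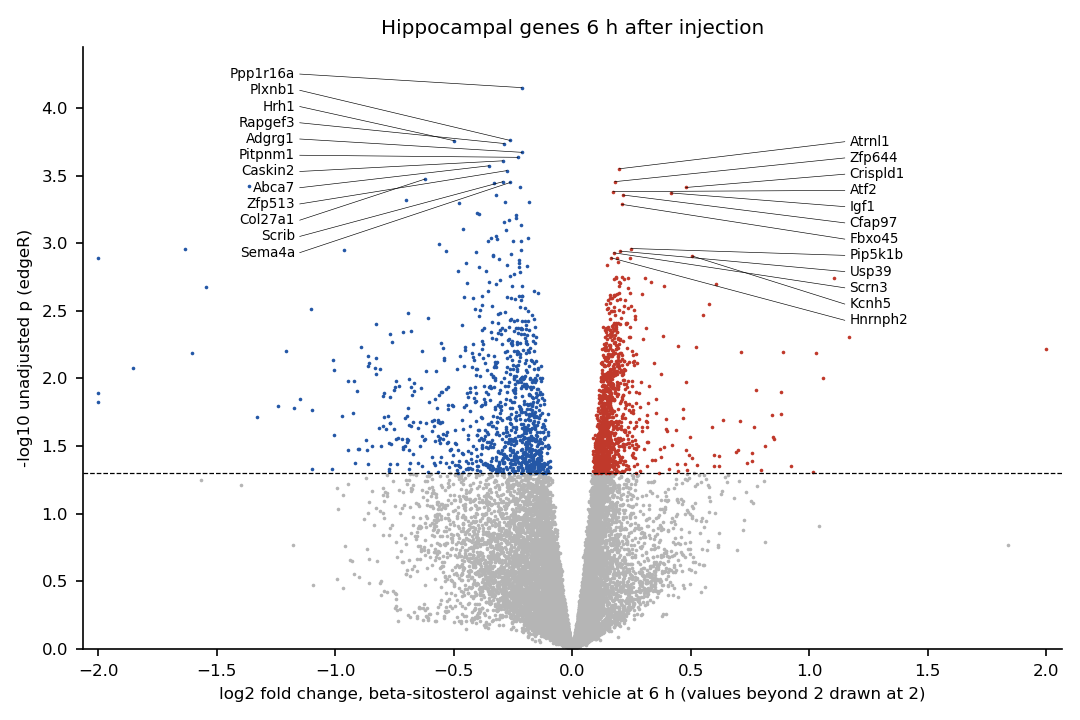
Each point is 1 of the 17055 genes tested, with the log2 fold change of beta-sitosterol against vehicle at 6 h on the x axis and −log10 of the unadjusted edgeR p on the y axis. Red and blue points have an unadjusted p under 0.05, higher and lower, and the 12 genes named on each side have folds between 1.12 and 1.54.

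Genes of sterol sensing and export leaned lower. Of 33 tested members of that list, 6 (18.2%, beside 5.77% of all genes) were lower and 1 (3.03%, beside 6.37%) was higher at an unadjusted p under 0.05, 5 had all treated mice below all vehicle mice, and 25 had a negative log2 fold change; the list's median was -0.05, against -0.01 over all genes. The 6 lower genes were Abca7, Srebf1, Apoe, Nr1h2, Cyp27a1 and Rxrg, and the higher one was Cyp7b1. After a correction of each library for transcript GC content and length the median was 0.01 and 4 members were lower. Without mice 13 and 19, without vehicle mouse 11 or without the libraries low in Ttr, 4 were lower. Leaving out the libraries low in Ttr keeps only vehicle mice 11, 12 and 13 and beta-sitosterol mice 18 and 20 at 6 h. Over all genes the counts also fell there, to 665 higher and 674 lower. The part of the smaller number of mice in such falls, here and below, was not tested. In whole tissue, fewer cells of a type and less RNA per cell cannot be told apart.

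The start regions of Srebf1 and Abca7 are shown because these are the regulator and the transporter with the smallest p in the list. Both windows are from RefSeq on GRCm38.p6 and run from 250 bases before to 50 bases after an annotated start, 5′ to 3′ along the gene. Srebf1 has 3 such windows and the one listed first, by lowest coordinate, is shown, chr11:60210422-60210721 (minus strand). On this strand it is the start furthest inside the gene, and the outermost start lies in the window chr11:60222532-60222831. Abca7 has 1 window, chr10:79996244-79996543 (plus strand). Capitals mark the GC box GGGCGG and the inverted CCAAT box ATTGG, which reads CCAAT where it lies on the other strand.
Srebf1: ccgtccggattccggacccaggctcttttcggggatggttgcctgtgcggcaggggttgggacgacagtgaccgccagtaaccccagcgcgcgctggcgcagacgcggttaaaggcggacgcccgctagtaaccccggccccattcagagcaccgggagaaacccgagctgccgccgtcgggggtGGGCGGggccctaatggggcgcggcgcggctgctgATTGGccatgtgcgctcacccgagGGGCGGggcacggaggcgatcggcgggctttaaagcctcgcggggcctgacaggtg
Abca7: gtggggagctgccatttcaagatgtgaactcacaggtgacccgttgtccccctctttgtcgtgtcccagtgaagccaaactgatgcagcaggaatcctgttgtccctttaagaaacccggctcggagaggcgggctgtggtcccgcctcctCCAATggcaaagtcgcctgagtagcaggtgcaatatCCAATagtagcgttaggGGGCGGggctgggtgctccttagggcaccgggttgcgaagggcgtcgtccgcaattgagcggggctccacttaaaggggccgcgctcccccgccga
The Srebf1 window holds 2 GC boxes, at bases 186 and 245, and 1 inverted CCAAT box at base 221. The Abca7 window holds 1 GC box at base 205 and 2 inverted CCAAT boxes at bases 152 and 188. Of 32851 mouse promoter windows of this length, 35.7% hold a GC box and 37.4% an inverted CCAAT box, so neither is rare. The nuclear receptor half-site AGGTCA (16.3% of windows), the E-box CACGTG (7.15%) and the sterol regulatory element core TCACNCCAC (1.24%) had no exact match on either strand in these 2 windows. Only these exact letters were searched. Sites that differ from them were not looked for, so binding sites for these regulators may still lie in the windows. No motif searched overlaps another in the 2 sequences. Of the Srebf1 windows not shown, the middle one holds 3 GC boxes and no inverted CCAAT box. The outermost one holds no GC box and 1 inverted CCAAT box.

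Srebf1, which codes for the SREBP-1 factor that drives fatty acid synthesis genes and is itself a liver X receptor target, lies on chromosome 11 (60199089 to 60222581, GRCm38, minus strand). Its levels were 71.5, 77.3, 72.3 and 67.4 CPM in vehicle mice 11 to 14 and 59.6, 61.5, 49.5 and 60.1 CPM in beta-sitosterol mice 17 to 20. All treated mice lay below all vehicle mice, and mouse 19 was the lowest. The means were 72.1 ± 4.04 and 57.7 ± 5.53 CPM (SD, n = 4 each), a 1.25-fold difference (log2 fold change -0.32, SE 0.0754, edgeR adjusted p = 0.321). Its exons overlap those of other genes on both strands, and reads there cannot be assigned with the strand setting unknown.

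Abca7, a lipid exporter known in macrophages, microglia and neurons and a risk gene for Alzheimer's disease in humans, was at 27.0, 24.2, 26.9 and 27.3 CPM with vehicle and at 19.7, 20.5, 20.7 and 21.6 CPM with beta-sitosterol. The groups did not overlap. The difference was 1.28-fold (log2 fold change -0.35, SE 0.0781, edgeR adjusted p = 0.321). Apoe, the main lipid carrier of the brain, made chiefly by astrocytes, measured 1241, 1218, 1229 and 1327 CPM with vehicle and 1109, 1103, 970.5 and 982 CPM with beta-sitosterol. Every treated mouse was again below every vehicle mouse, with mice 19 and 20 lowest. The means were 1254 ± 49.7 and 1041 ± 75.1 CPM (log2 fold change -0.27, SE 0.0656, edgeR adjusted p = 0.321).

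Nr1h2 encodes the beta form of the liver X receptor, which is abundant in brain. It was at 40.6, 41.5, 42.8 and 43.5 CPM with vehicle and at 39.4, 36.1, 36.5 and 35.9 CPM with beta-sitosterol. Mouse 17 came close to the lowest vehicle mouse, and the groups did not overlap (log2 fold change -0.19, SE 0.0562, edgeR adjusted p = 0.321). After the correction for GC content and length, Srebf1, Abca7 and Apoe had log2 fold changes of -0.23, -0.27 and -0.14, each still at an unadjusted p under 0.05, and Nr1h2 had -0.06, no longer under it. Transcripts of these 4 genes have GC contents of 58.4, 58.9, 59.5 and 60.6%, above the median of 49.4% over all genes.

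Abca1, the exporter that loads apolipoprotein E with cholesterol, lay between 55.0 and 63.5 CPM with vehicle and between 53.6 and 59.9 CPM with beta-sitosterol (log2 fold change -0.11, edgeR adjusted p = 0.549), and the groups overlapped. Abcg1, another sterol exporter, had a log2 fold change of -0.01 (adjusted p = 0.979), and Nr1h3, which codes for liver X receptor alpha, one of -0.06 (adjusted p = 0.850). Cyp7b1, an oxysterol hydroxylase, averaged 22.9 ± 1.59 CPM with vehicle and 26.0 ± 2.27 CPM with the sterol (log2 fold change 0.19, adjusted p = 0.363). Its log2 fold change was 0.10 without mice 13 and 19, no longer at an unadjusted p under 0.05. The sterol 27-hydroxylase gene Cyp27a1 was at 4.72, 4.66, 4.32 and 4.13 CPM against 3.30, 3.43, 3.42 and 4.23 CPM, with mouse 20 inside the vehicle range.

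Cholesterol synthesis genes lay near the middle. Of 25 tested members 2 (8%) were lower and 1 (4%) was higher, near the shares of all genes, with a median of -0.01. The lower ones were Tm7sf2, a sterol reductase (log2 fold change -0.21, adjusted p = 0.344), and Lss, the lanosterol synthase (-0.17, adjusted p = 0.384), and the higher one was Hsd17b7, a 3-keto-reductase of the pathway (0.13, adjusted p = 0.400), at 0.09 and no longer under the threshold without mice 13 and 19. Without vehicle mouse 11 none was lower. Insig1, which holds SREBP in the endoplasmic reticulum, had a log2 fold change of -0.09 (adjusted p = 0.665).

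Among 24 genes of fatty acid synthesis and desaturation, 2 (8.33%) were lower and none was higher at an unadjusted p under 0.05, with a median of -0.06. The share lower was near the 5.77% of all genes, of which 6.37% were higher. Fads2, the delta-6 desaturase of polyunsaturated fatty acids, was at 124, 112, 109 and 118 CPM with vehicle and at 104, 102, 93.4 and 99.6 CPM with beta-sitosterol (log2 fold change -0.22, SE 0.0536, edgeR adjusted p = 0.321). The groups did not overlap. Scd1, a stearoyl-CoA desaturase, was at 239, 216, 197 and 191 CPM against 162, 179, 189 and 186 CPM, also apart but by little (log2 fold change -0.24, adjusted p = 0.394). Fasn, the fatty acid synthase, overlapped between groups (-0.08, adjusted p = 0.677), and Me1, the malic enzyme that supplies NADPH, was the member with the smallest p among those on the higher side (0.11, adjusted p = 0.411).

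**Figure D3:**
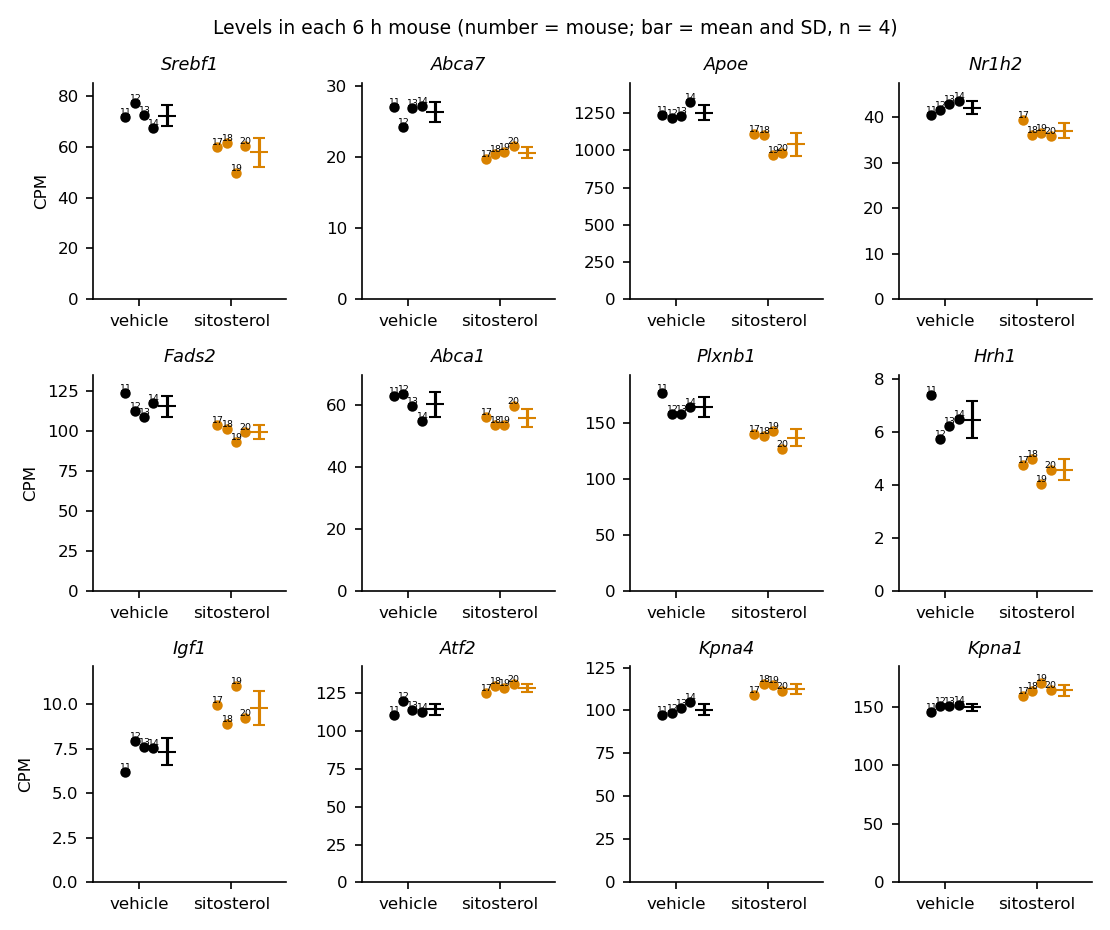
Levels of 12 genes in CPM on axes that start at 0, with 1 point per 6 h mouse labelled by its number and the mean and SD of each group beside the points (n = 4). Of the 12 genes only Abca1 overlaps between vehicle and beta-sitosterol, and the folds of the other 11 run from 1.10 to 1.41.

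The 12 lower genes with the smallest p were Ppp1r16a, Plxnb1, Hrh1, Rapgef3, Adgrg1, Pitpnm1, Caskin2, Abca7, Zfp513, Col27a1, Scrib and Sema4a, with folds from 1.16 to 1.54. Ppp1r16a, a membrane-anchored regulatory subunit of protein phosphatase 1, had the smallest p of all genes. It was at 67.7, 69.7, 70.8 and 68.6 CPM with vehicle and at 61.5, 60.0, 58.3 and 58.8 CPM with beta-sitosterol, and both groups were narrow (log2 fold change -0.21, SE 0.0418, edgeR adjusted p = 0.321). Hrh1, the histamine H1 receptor, was a low-level gene at 7.41, 5.75, 6.23 and 6.52 CPM against 4.76, 4.99, 4.03 and 4.57 CPM, a 1.41-fold difference (adjusted p = 0.321). It was the only one of 26 monoamine and histamine receptor genes with an unadjusted p under 0.05 (3.85%, beside 5.77% of all genes lower). Drd5, the dopamine D5 receptor, stood at the head of the higher side of that list without reaching it (log2 fold change 0.26, adjusted p = 0.441).

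Adgrg1, the adhesion receptor GPR56, averaged 82.9 ± 2.71 CPM with vehicle and 71.5 ± 2.49 CPM with the sterol. Scrib, a scaffold of cell polarity, averaged 53.0 ± 4.63 against 43.3 ± 1.87 CPM, and Pitpnm1, a phosphatidylinositol transfer protein, 204 ± 14.0 against 173 ± 6.18 CPM. In all 3 the groups did not overlap.

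Semaphorins and plexins, a ligand and receptor pair of axon guidance, went both ways. Of 30 members 6 (20%) were lower and 4 (13.3%) higher, beside 5.77% and 6.37% of all genes. The counts were 4 and 1 when the libraries low in Ttr were left out. The plexin receptor gene Plxnb1 was at 176, 158, 158 and 164 CPM with vehicle and at 140.2, 138, 143 and 126 CPM with the sterol (log2 fold change -0.26, SE 0.0557, edgeR adjusted p = 0.321). Plxnb3, Plxna3 and Plxnd1 were lower too (-0.34, -0.29 and -0.27), as were the transmembrane ligand genes Sema4a and Sema4g (-0.26 and -0.19). The higher members were the secreted ligand genes Sema3e and Sema3d (0.25 and 0.21), the co-receptor gene Nrp1 (0.18) and Plxna2 (0.16). Sema3e was at 65.7, 77.6, 80.2 and 80.0 CPM against 87.8, 87.5, 97.6 and 87.9 CPM, with mouse 11 lowest among vehicle and mouse 19 highest among treated mice.

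Collagen genes showed the largest shift in median log2 fold change of the gene families surveyed by symbol. Of 44 tested, 10 (22.7%) were lower and 1 (2.27%) was higher, beside 5.77% and 6.37% of all genes. A negative log2 fold change was seen in 37, and the median was -0.35. The count lower was 5 without mice 13 and 19, 7 without vehicle mouse 11 and 11 without the libraries low in Ttr. Col27a1, a fibrillar collagen, was at 8.97, 7.18, 9.63 and 8.02 CPM against 5.56, 6.21, 3.99 and 6.21 CPM (log2 fold change -0.62, SE 0.141, edgeR adjusted p = 0.321). Col6a2, a chain of the collagen VI microfibril, had a log2 fold change of -0.69 (adjusted p = 0.338), which became -0.48 when the libraries low in Ttr were left out and -0.60 when mice 13 and 19 were, in neither case at an unadjusted p under 0.05. Col6a1, another such chain, is not among the 10: its log2 fold change of -0.78 (adjusted p = 0.446) came with a wide vehicle spread of 40.1 ± 11.4 CPM and was -0.45 without the libraries low in Ttr. Col6a4, also a collagen VI chain, was at 7.72, 6.13, 6.74 and 4.78 CPM with vehicle and at 0.908, 2.48, 3.88 and 0.953 CPM with the sterol, 3.11-fold lower (adjusted p = 0.321), and was chosen after its values were seen. The member that was higher was Col3a1 (0.45, adjusted p = 0.408). Markers of meningeal fibroblasts, which make many collagens, had a median of 0.12, with 2 of 10 (20%, beside 6.37% of all genes) higher and none lower. Choroid plexus markers summed to 267 to 5549 CPM with vehicle and 291 to 6801 CPM with the sterol. The part of both marker lists in the collagen values was not tested.

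The 12 higher genes with the smallest p were Atrnl1, Zfp644, Crispld1, Atf2, Igf1, Cfap97, Fbxo45, Pip5k1b, Usp39, Scrn3, Kcnh5 and Hnrnph2, with folds from 1.12 to 1.42. In each the groups did not overlap. Igf1, the insulin-like growth factor 1 gene, was at 6.22, 7.95, 7.62 and 7.53 CPM with vehicle and at 9.99, 8.88, 11.0 and 9.26 CPM with beta-sitosterol. Mouse 11 was lowest and mouse 19 highest (1.34-fold, log2 fold change 0.42, SE 0.0973, edgeR adjusted p = 0.321). Its binding proteins, receptors and other members of the system, 18 tested in all, held 1 other gene with an unadjusted p under 0.05, Igf2bp2, an mRNA-binding protein, at under 1 CPM in every 6 h mouse (-0.72, adjusted p = 0.377), no longer at that threshold without mice 13 and 19.

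Atf2, a bZIP transcription factor that binds cyclic AMP response elements, was at 110.5, 119, 114 and 113 CPM against 125, 129.7, 129 and 131 CPM (log2 fold change 0.17, SE 0.04, adjusted p = 0.321). In the list of cyclic AMP signalling and its factors, 4 of 37 members (10.8%) were higher and 5 (13.5%) lower. Over all genes the shares were 6.37% and 5.77%. The list's counts were 2 and 1 when the libraries low in Ttr were left out. The higher ones were Atf2, Creb1 (0.12) and the phosphodiesterase genes Pde7b (0.30) and Pde4d (0.15). The lower ones were the adenylyl cyclase genes Adcy5, Adcy6 and Adcy7 (-0.17, -0.20 and -0.26), Pde1c (-0.29) and Rapgef3, which codes for the cyclic AMP-activated exchange factor EPAC1. Rapgef3 was at 49.0, 44.3, 44.1 and 45.0 CPM against 37.2, 36.6, 41.7 and 34.0 CPM, with mouse 19 nearest the vehicle range (log2 fold change -0.29, adjusted p = 0.321).

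Kcnh5, a voltage-gated potassium channel of the ether-a-go-go family, had the largest fold of the 12, at 5.35, 5.50, 5.61 and 4.70 CPM against 6.68, 7.02, 8.56 and 7.85 CPM (log2 fold change 0.51, SE 0.133, adjusted p = 0.321). Crispld1, a secreted protein with a cysteine-rich domain, was at 6.69, 6.41, 6.77 and 6.97 CPM against 10.5, 8.92, 9.63 and 8.31 CPM. Hnrnph2, an RNA-binding splicing regulator, was at 91.0, 96.0, 95.8 and 91.8 CPM against 105, 103, 105 and 107 CPM. Fbxo45, a subunit of a synaptic ubiquitin ligase, averaged 63.3 ± 3.33 against 73.1 ± 1.86 CPM.

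By the largest fold among genes of at least 5 CPM with groups apart, Pcdhb11 and Spp1 joined the higher side and Car8 the lower. Pcdhb11, a clustered protocadherin, averaged 5.20 ± 0.594 against 7.10 ± 0.548 CPM (adjusted p = 0.321), and Spp1, the osteopontin gene, 6.05 ± 1.11 against 8.00 ± 0.456 CPM (adjusted p = 0.441). Car8, a carbonic anhydrase-related protein, had a fold of 3.61 with vehicle mouse 13 far above the rest. It was at 4.75, 4.87, 32.9 and 4.78 CPM with vehicle and at 3.49, 3.05, 3.07 and 3.51 CPM with the sterol, and its log2 fold change went from -1.85 to -0.52 without mice 13 and 19.

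Importins and exportins, the carriers of proteins through the nuclear pore, had the highest share of members on the higher side among the functional lists and families. Of 24 tested, 10 (41.7%) were higher and none lower, beside 6.37% of all genes, and the median was 0.09. In the highest of 5 equal classes of mean level, from 69.1 CPM up, 17.4% of genes were higher and 3.93% lower. The part of expression level in the shares of this and the following groups was not tested. The 10 were Kpna1, Kpna3, Kpna4 and Kpna6, which are importin alpha genes, the importin beta gene Kpnb1, Ipo5, Ipo7, Ipo11, Tnpo3 and Xpo7, with log2 fold changes between 0.09 and 0.16. Kpna4 was at 97.3, 98.5, 102 and 105 CPM with vehicle and at 109, 115, 115 and 112 CPM with the sterol (log2 fold change 0.16, SE 0.0468, adjusted p = 0.321), and Kpna1 at 145, 151, 151 and 152 against 159, 164, 170.2 and 164 CPM (0.13, adjusted p = 0.321). In both the groups did not overlap. The count was 4 higher and 1 lower without vehicle mouse 11, and 6 higher and 0 lower both without mice 13 and 19 and without the libraries low in Ttr. Ipo13 was the member with the smallest p among those on the lower side (-0.09, adjusted p = 0.444).

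Inhibitory synapse genes followed. Of 24 genes of GABA signalling 8 (33.3%, beside 6.37% of all genes) were higher and none lower (median 0.10). Among the 8 were the GABA-A receptor subunit genes Gabra2, Gabra4 and Gabrb2, the GABA-B subunit gene Gabbr2, and Gphn, which codes for the receptor anchor gephyrin. Gabra2 was at 232, 235, 239 and 250.5 CPM against 268, 268, 248 and 274 CPM (log2 fold change 0.15, SE 0.0505, adjusted p = 0.321) and was picked after its values were seen. Mouse 19 lay below mouse 14, and the other treated mice lay above all vehicle mice. Without vehicle mouse 11, 6 members were higher and 1 lower, and without mice 13 and 19, 5 and 1. Iqsec3, a partner of gephyrin, was on the lower side (-0.14, adjusted p = 0.412).

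Of 24 glutamate receptor genes 4 (16.7%) were higher and 3 (12.5%) lower, beside 6.37% and 5.77% of all genes. The higher members were Gria1, Gria3, Grin2a and Grin2b (0.17, 0.15, 0.26 and 0.28), subunits of AMPA and NMDA receptors, and the lower ones included Grm3 and Grin2c (-0.19 and -0.26), of which Grin2c is best known from the cerebellum and Grm3 from astrocytes. Gria3 was at 224, 217, 223 and 227 CPM against 245, 252, 251 and 241 CPM, with no overlap (adjusted p = 0.336). Without mice 13 and 19 no member of this list of 24 was higher or lower. Of 26 sodium and calcium channel genes 6 (23.1%) were higher and 1 (3.85%) lower (median 0.11). The calcium channel subunit gene Cacna2d1 was at 206, 206, 221 and 223 CPM against 254, 249, 245 and 237 CPM (0.20, adjusted p = 0.321), and the lower one was Cacna1g, a T-type channel (-0.30, adjusted p = 0.321), at -0.19 and no longer under the threshold without the libraries low in Ttr. When the length trend of the libraries was a covariate, 2 sodium and calcium channel genes were higher and 3 lower, with a median of -0.01, and 0 glutamate receptor genes were higher and 5 lower.

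Other families taken by symbol leaned to 1 side, and their shares stand beside 17.4% higher and 3.93% lower in the class of genes with the highest mean level. Heat shock proteins and their DnaJ partners had 15 of 64 (23.4%) higher and 1 lower (median 0.07), with Hsph1, a co-chaperone of HSP70, at 254, 305, 320.4 and 290.0 CPM against 320.2, 343, 361 and 339 CPM. Mouse 11 was the lowest there, mouse 17 lay just below mouse 13, and the count was 7 higher without mouse 11. The Rab GTPases of membrane traffic had 9 of 55 (16.4%) higher and none lower, Rab6a among them (1.14-fold, adjusted p = 0.321), and 4 higher without mouse 11. The DEAD and DEAH box RNA helicases had 11 of 52 (21.2%) higher and 3 (5.77%) lower, and 5 and 2 without the libraries low in Ttr. Kinesin motors had 9 of 35 (25.7%) lower and 4 (11.4%) higher (median -0.15), and 3 of each after the correction for GC content and length, with Kif1a, the motor of synaptic vesicle precursors, at 1427 ± 27.7 CPM with vehicle and 1307 ± 77.4 CPM with the sterol. Cytosolic ribosomal protein genes had 13 of 80 (16.2%) lower and none higher, and every 1 of the 80 had a negative log2 fold change (median -0.11). With the length trend as covariate their median was 0.01 and 2 were lower, so their direction depends on that setting. Hsph1, Rab6a and Kif1a were picked after their values were seen.

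**Figure D4:**
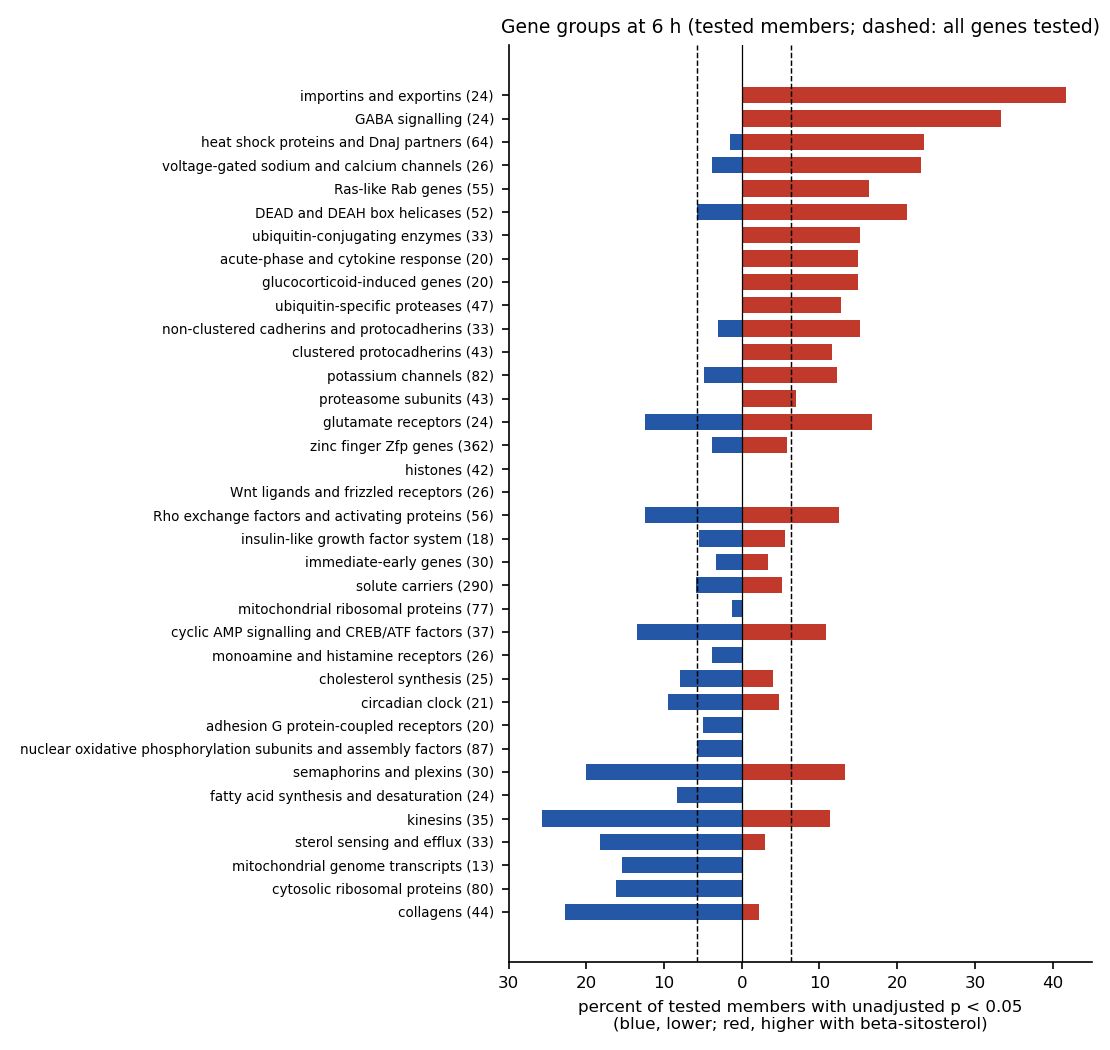
Bars give the percentage of tested members of each list or symbol family with an unadjusted edgeR p under 0.05, to the left in blue for lower and to the right in red for higher with beta-sitosterol. Dashed lines mark 5.77% lower and 6.37% higher over all 17055 genes, and importins reach 41.7% higher while kinesins reach 25.7% and collagens 22.7% lower.

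Direction went with sequence and level. Transcripts of the 12 leading lower genes had GC contents from 51.4 to 61.2%, and those of the 12 leading higher genes from 38.0 to 50.8%. Over 5 equal classes from the lowest to the highest transcript GC content, 10.8, 10.6, 6.83, 3.09 and 0.56% of genes were higher and 2.21, 2.5, 3.89, 6.98 and 13.3% were lower. Over 5 classes of mean level, 0.967% of the lowest and 17.4% of the highest class were higher, and 4.46% and 3.93% were lower. Over 5 classes of transcript length the share higher went from 1.03 to 11.2%. The share lower was 5.18% in the shortest and 5.24% in the longest class. The part of read number per gene in these shares was not tested. The slope of log2 level on GC content, per 10 percentage points, was -0.04, 0.04, 0.11 and 0.05 in vehicle mice 11 to 14 and 0.01, 0.02, -0.02 and -0.05 in beta-sitosterol mice 17 to 20. Mice 11 and 13 were thus at opposite ends among vehicle mice and the groups overlapped. With this slope as a covariate, a setting chosen after seeing the data, 1924 genes were higher and 1258 lower at an unadjusted p under 0.05. Without it the counts were 1086 and 984, and edgeR called 0 genes either way. The part of the slope in the shares by class was not tested. After the correction for GC content and length 1583 genes were higher and 496 lower, so that 76.1% of them were higher, against 52.5% as reported. Of the 12 leading genes of each direction, 11 lower and 12 higher ones had an unadjusted p under 0.05 in the same direction after it, and the exception was Ppp1r16a, at -0.10.

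**Figure D5:**
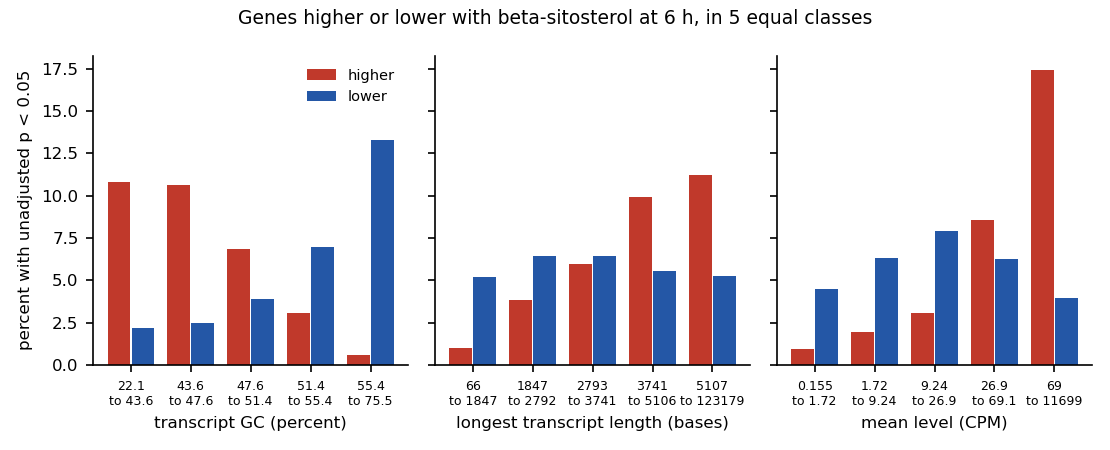
Percentage of genes higher (red) and lower (blue) with beta-sitosterol at an unadjusted edgeR p under 0.05, in 5 equal classes of transcript GC content, transcript length and mean level, each class labelled with its range. The share lower reaches 13.3% and the share higher 0.56% in the class of highest GC content, and the share higher reaches 17.4% in the class of highest level.

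Genes of the stress and acute-phase response were higher in part. Of 20 glucocorticoid-induced genes 3 (15%, beside 6.37% of all genes) were higher and none lower, namely Lcn2, Fkbp5 and Errfi1, a feedback inhibitor of the EGF receptor. The list's median of 0.09 became -0.01 once mouse 19 was left out and 0.18 once mouse 17 was. The number higher was 1 without vehicle mouse 11, and 0 with the length trend as covariate. Of 20 acute-phase genes 3 (15%) were higher and none lower (median 0.02), namely Lcn2, Serpina3n and Il6ra, the interleukin 6 receptor, and 1 was higher with the length trend as covariate or without mice 13 and 19. Lcn2, which codes for the iron-carrier-binding lipocalin 2 and belongs to both lists, was at 0.532, 1.23, 0.681 and 1.01 CPM with vehicle and at 1.53, 1.94, 28.4 and 1.71 CPM with the sterol. Mouse 19 set its log2 fold change of 3.29 (SE 0.996, adjusted p = 0.321), which was 0.92 without mice 13 and 19, no longer at an unadjusted p under 0.05. Even so every treated mouse lay above every vehicle mouse. Fkbp5, a co-chaperone of the glucocorticoid receptor and a known target of it, was at 63.8, 73.6, 88.0 and 81.6 CPM against 85.2, 89.9, 134 and 95.4 CPM. Mouse 17 lay below mouse 13, mouse 19 was highest, and the log2 fold change was 0.40 (adjusted p = 0.353). It was 0.23 without mouse 19, 0.32 without vehicle mouse 11 and 0.25 with the length trend as covariate, each time no longer at an unadjusted p under 0.05. Serpina3n, an acute-phase protease inhibitor of reactive astrocytes, was at 50.2, 61.3, 59.4 and 57.0 CPM against 66.7, 68.5, 81.0 and 70.2 CPM, with no overlap (0.33, SE 0.0905, adjusted p = 0.321). Sgk1 and Per1, other glucocorticoid targets, overlapped between groups, as did Nfkbiz, a nuclear regulator of NF-kappa-B and the acute-phase member with the smallest p on the lower side (-0.13, adjusted p = 0.664).

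Most immediate-early genes of neuronal activity did not separate the groups at 6 h. Of 30 tested, 1 (3.33%) was higher, Bdnf (0.16, adjusted p = 0.400), and 1 was lower, Gadd45g (-0.23, adjusted p = 0.321, groups apart), shares below those of all genes. Bdnf was at 0.12 without vehicle mouse 11 and at 0.08 when the length trend was a covariate, and Gadd45g at -0.09 after the correction for GC content and length, none of these at an unadjusted p under 0.05. Fos was at 5.32, 9.53, 8.78 and 9.44 CPM with vehicle and at 6.94, 11.0, 9.60 and 6.40 CPM with the sterol, and Arc at 98.6, 103, 109.5 and 134 against 98.2, 152, 128 and 88.2 CPM. Their log2 fold changes of 0.04 (SE 0.217) and 0.07 (SE 0.190) were smaller than their errors. Among 21 clock genes, Npas2 and Rorb were lower (-0.20, adjusted p = 0.321, and -0.19) and Clock, a paralog of Npas2, was higher (0.10, adjusted p = 0.383), which is 9.52% and 4.76%, near the shares of all genes. Clock was at 0.07 with the length trend as covariate and Npas2 at -0.14 without the libraries low in Ttr, neither then at an unadjusted p under 0.05. All 13 mitochondrial genome transcripts had a negative log2 fold change (median -0.14), with mt-Nd6 and mt-Nd5 (15.4%, beside 5.77% of all genes) at an unadjusted p under 0.05, and mt-Nd6 averaged 1413 ± 99.1 against 1228 ± 47.8 CPM. With the length trend as covariate 9 of the 13 were negative, the median was -0.02 and none was lower at that threshold, and without vehicle mouse 11 the median was -0.08 and none was lower. After the correction for GC content and length mt-Nd6 had a log2 fold change of -0.11, no longer under the threshold.

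Cell type markers gave a pattern of their own. Every tested marker of oligodendrocytes, 14 of 14, had a negative log2 fold change (median -0.27). Of these, 3 (21.4%, beside 5.77% of all genes) had an unadjusted p under 0.05, Mbp, Aspa and Mag. None did with the length trend as covariate or without vehicle mouse 11. The markers summed to 6086 to 8035 CPM with vehicle and 5251 to 6628 CPM with the sterol, so the groups overlapped. Mbp, the myelin basic protein gene, was at 3172, 3071, 2796 and 2415 CPM against 1949.9, 2218, 2428 and 2170.4 CPM, with mouse 19 just above mouse 14. Olig1 and Olig2, transcription factors of the oligodendrocyte lineage, were lower with groups apart (-0.27, adjusted p = 0.321, and -0.30, adjusted p = 0.321), and Olig2 was at 23.8, 24.8, 24.8 and 21.2 CPM against 20.0, 19.5, 18.2 and 19.0 CPM. Of microglial markers 14 of 14 were negative (median -0.11), 1 of them (7.14%, near the 5.77% of all genes) at an unadjusted p under 0.05. Astrocyte markers were negative in 11 of 12 (median -0.08) and choroid plexus markers in 16 of 16 (median -0.59), none at that threshold. Apoe is made by astrocytes and microglia, and the part of these markers in its values was not tested.

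Markers of the dentate gyrus and CA3 leaned the other way. All 10 dentate gyrus markers and all 8 CA3 markers were positive, with medians of 0.19 and 0.16. In each list 3 members (30% and 37.5%, beside 6.37% of all genes) were higher at an unadjusted p under 0.05. Among them were Calb1 of the dentate gyrus (0.22, adjusted p = 0.321) and Elavl2 of CA3 (0.18, adjusted p = 0.321). Dentate markers summed to 762 to 874 CPM with vehicle and 893 to 1002 CPM with the sterol, which did not overlap, and CA3 markers to 396 to 486 against 474 to 545 CPM, which did. The CA1 markers had a median of 0.03 with none past that threshold. Medians were 0.03 for CA2 markers, 0.04 for interneuron markers and 0.10 for pyramidal neuron markers, with 14.3, 13.3 and 10% of members higher. The dentate median was 0.00 to 2 decimals with the length trend as covariate, and 1 member was then higher. The part of these markers in the neuronal channel and receptor values was not tested.

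The 6 h and 1 h comparisons share no mouse, but both use the same fitted spread of each gene, estimated from all 16 libraries. A gene with a small fitted spread can thus pass at both times, and the part of this in the overlap was not tested. At 1 h 985 genes were higher (5.78%) and 757 lower (4.44%) at an unadjusted p under 0.05. Of the genes higher at 6 h, 439 were higher at 1 h too, which is 40.4% of the 6 h and 44.6% of the 1 h genes, and 6 were lower there. Of those lower at 6 h, 181 were lower at 1 h, 18.4% and 23.9%, and 3 were higher there. Both times had the same slant with GC content, with class medians at 1 h from 0.02 in the lowest to -0.03 in the highest class, and its part in this overlap was not tested. All 24 leading genes had the same direction at 1 h, 7 of the lower and 6 of the higher ones with an unadjusted p under 0.05. The share of all genes with the same direction at both times was not counted. The lower ones had GC contents from 51.4 to 61.2% and the higher ones from 38.0 to 50.8%. The part of the slant and of the shared spread in their directions was not tested. Plxnb1 had a log2 fold change of -0.26 at each time and Fads2 of -0.22 and -0.23 at 6 h and 1 h, while Srebf1 had -0.32 and -0.16 and Abca7 -0.35 and -0.17.

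The difference between the effects at 6 h and 1 h was tested directly, and no gene passed by edgeR (smallest adjusted p 1.0), with 327 genes (1.92%) at an unadjusted p under 0.05; DESeq2 and limma also called 0. The 5 genes with the smallest p for it were Hhex, Olig2, Etv6, Apold1 and Btg2. Olig2 was lower with the sterol at 6 h and had a log2 fold change of 0.23 at 1 h (adjusted p = 1.0 for the difference). Etv6, an ETS repressor, was at 0.19 and -0.17. Hhex, a homeobox repressor, was at 0.27 and -0.87, Apold1, an early gene of endothelial cells, at 0.00 and -1.11, and Btg2, an antiproliferative early gene, at 0.08 and -0.45. Btg2 averaged 15.7 ± 1.61 CPM with vehicle and 16.5 ± 1.76 CPM with the sterol at 6 h, against 20.8 ± 2.69 and 15.3 ± 0.917 CPM at 1 h.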

How the data were processed

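RNA from mouse hippocampus was sequenced after TruSeq mRNA preparation, and reads per gene were analysed in 16 libraries, 4 per group, each from a different numbered animal, with groups taken from the sample titles. The authors deposited whole-number counts of reads per Ensembl gene, not normalized, and a second deposited table of normalized signal, the counts times 1 factor per library. On GRCm38 they used TopHat2 2.0.10 with HTSeq 0.6.1p1 and DESeq2 1.6.3, after CASAVA 1.8.2 and cutadapt, per the submitters' processing notes. Neither the annotation release nor whether counting used strand is stated there, so reads of overlapping genes cannot be told apart: of 70 genes named, 13 overlap exons on the opposite and 7 on the same strand.

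The table holds 46603 gene IDs, 46005 of them matched to a symbol. The filterByExpr filter (at least 10 reads in enough libraries, at least 15 in all) kept 17055 genes, which hold 99.9% of the reads. Libraries hold 24815581 to 31266644 reads, and the common biological coefficient of variation was 0.0988. In R 4.3.3, edgeR 4.0.16 fitted a robust quasi-likelihood model with TMM scaling and no covariate to all 16 libraries (12 residual degrees of freedom), and p-values were adjusted by Benjamini-Hochberg over all genes tested, with a threshold of 0.05. The unadjusted counts use the same threshold. CPM are scaled by TMM. Scripts were tested on simulated data with known changes.

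The alternatives were RLE scaling, no count filter, a filter at 5 CPM, DESeq2 1.42.0, limma 3.58.1 on the log2 of the deposited signal plus 1, the 6 h libraries alone, a choroid plexus score or each library's length trend as covariate, correction for GC content and length, the 12 libraries with Ttr of at least 100 CPM, and each mouse left out. Leaving out mice 13 and 19 and a GC trend covariate were chosen after seeing the data, as were the symbol patterns of families, which were narrowed to drop unrelated genes.

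Genes are named by a rule: the 12 with the smallest p per direction, the 5 per direction with the largest fold among genes of at least 5 CPM with groups apart, the member of each functional list with the smallest p per direction, the 5 with the smallest p for the difference between times, and 15 fixed genes with Ttr. Predicted genes and pseudogenes are not named, and some genes that the rule or the lists hold are not reported here. Any other gene named was picked with its values known. The members, lists and tests were chosen with earlier results of these data known. Lists get no test of their own.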

Additional observations from a re-analysis of the deposited data

Results flagged for a closer look

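A mouse was singled out where the gap to its nearest group member, over the range of its 4 mice, exceeded the 95% critical value of Dixon's test. Chance does this in about 1 of 20 groups, and it occurred in 13 of 140 groups (9.29%) over the 70 genes named. In beta-sitosterol mouse 19, Lcn2 was high at 28.4 CPM (others 1.53 to 1.94), Sema3e was high at 97.6 CPM (others 87.5 to 87.9), Srebf1 was low at 49.5 CPM (others 59.6 to 61.5) and Col6a2 was low at 4.95 CPM (others 8.04 to 8.21). In beta-sitosterol mouse 20, Caskin2 was low at 23.2 CPM (others 26.8 to 27.3), Per1 was low at 88.3 CPM (others 97.9 to 98.5) and Ttr was high at 3801 CPM (others 58.7 to 686). In beta-sitosterol mouse 17, Nr1h2 was high at 39.4 CPM (others 35.9 to 36.5).

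In vehicle mouse 11, Kpna1 was low at 145 CPM (others 151 to 152) and Usp39 was low at 26.2 CPM (others 27.6 to 27.8). In vehicle mouse 12, Abca7 was low at 24.2 CPM (others 26.9 to 27.3) and Btg2 was high at 18.1 CPM (others 14.6 to 15.1). In vehicle mouse 13, Car8 was high at 32.9 CPM (others 4.75 to 4.87).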

How the results depend on the processing

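edgeR called 0 genes at 6 h under every setting and with each mouse left out (0 to 0), and DESeq2 called 123. The count of genes higher at an unadjusted p under 0.05, 1086, was 665 without the libraries low in Ttr, 1924 with the GC trend as covariate, 532 without vehicle mouse 11 and 700 without mouse 19, and 532 to 1255 over the mice left out in turn. The count lower, 984, was 496 after the GC and length correction, 606 without mice 13 and 19, and 669 to 1169 over the mice left out. The share higher among all these genes was 52.5% as reported, 58.3% with RLE scaling, 61.4% with DESeq2, 58.8% with limma, 76.1% after the GC and length correction, 60.5% with the GC trend as covariate, 44.4% with the choroid plexus score as covariate and 45.3% with the length trend as covariate. The GC and length correction moved the median of all genes from -0.01 to 0.03.

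Signs turned for genes near 0: Per1 to 0.037 after the GC and length correction and 0.044 with the GC trend, Ipo13 to 0.0011 after the GC and length correction, and Apold1 to -0.0047 with limma. Sgk1 turned to 0.0054 with RLE scaling, 0.0072 without a count filter, 0.0056 with DESeq2, 0.0050 in the 6 h libraries alone, 0.020 with the choroid plexus score, 0.25 without the libraries low in Ttr, 0.12 without mice 13 and 19 and 0.052 with the GC trend. With mice left out, Apold1 ran from -0.080 to 0.13, Sgk1 from -0.20 to 0.16, Fos from -0.13 to 0.15 and Arc from -0.084 to 0.18. The causes were not tested. No paired analysis was possible because the groups share no animal numbers. Genes at under 1 CPM, Igf2bp2 among those named, are limited by depth.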

Other observations

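Tmem40, on chromosome 6 (115729131 to 115762410, GRCm38, minus strand), had the widest gap between sorted libraries of all 17055 genes, 5.96 on the log2 scale. It was at 48.9 and 46.9 CPM in vehicle mice 13 and 14 and at most 0.682 CPM in the other 14 libraries of the study. Of neighbouring genes, Cand2 was at 7.42 and 5.91 CPM in those mice, inside the 4.95 to 7.70 CPM of the other 6 h mice, as were Rpl32 at 109 and 124 CPM (others 106 to 131) and Efcab12 at 4.87 and 5.95 CPM (others 3.53 to 6.32). D830050J10Rik was at 0.783 and 1.17 CPM, above the 0.344 to 0.763 CPM of the others in both mice, and Gm44206 at 0.340 and 0.608 CPM (others 0.145 to 0.438), above them in mouse 14. The fitted log2 fold change of Tmem40 at 6 h, -6.53 (adjusted p = 0.321), rests on these 2 mice, and the groups overlapped.

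Vehicle mouse 13 also held Pcp2 at 4.46 CPM (others at 6 h 0.0768 to 0.532), Cbln1 at 12.7 CPM (others 3.05 to 4.87) and Arhgef33 at 3.81 CPM (others 0.384 to 1.30). Plin4, the lipid droplet coat gene that was highest in mouse 19, was at 11.7 to 24.8 CPM in the other 6 h mice of both groups and at 3.73 to 8.81 CPM in all 8 mice of 1 h.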
